A study of Mus musculus with 6 samples.

Results

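miR-103 and miR-107 (mmu-miR-103 and mmu-miR-107 in the table) are a pair of near-identical microRNAs that lie in introns of the pantothenate kinase (Pank) genes. All rows of the table named for either microRNA were taken, with or without a copy number or arm. There were 2 such rows, 1 for each, among the 695 mature mouse microRNAs measured. The tissue came from C57BL/6J mice aged 6 months that had all been injected, on the day after birth, with 3E10 particles of the adeno-associated virus vector AAV-Rian-CMV, which targets the Rian locus. The groups were 3 liver tumours and 3 pieces of normal-looking liver taken beside them. Every group thus carried the vector, and no liver of uninjected mice was analysed here. Each sample was measured on 1 microarray of 1 colour, and the pairs are called 1293, 1309 and 1316 as in the labels (1 tumour is titled 1316 while its source name reads 1306). Whether the 3 pairs are from different mice is not given in the labels. If some share a mouse, the arrays are not independent and the p-values may be too small.

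A microRNA guides an Argonaute protein to messenger RNAs, mainly by pairing of its seed, bases 2 to 8 from the 5′ end. The Pank genes encode the kinases that start the synthesis of coenzyme A from vitamin B5, so miR-103 and miR-107 are made from transcripts of genes of intermediary metabolism. In mouse liver and fat, miR-103 and miR-107 are known to lower insulin sensitivity through caveolin-1, a scaffold protein that stabilises the insulin receptor. In human breast cancer cells they are known to lower Dicer, the enzyme that cuts microRNA precursors.

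The mature sequences are shown because the pair differ so little. They are from RefSeq (GRCm38.p6), with the seed in capitals.
miR-103: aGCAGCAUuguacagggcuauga
miR-107: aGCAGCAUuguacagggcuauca
Of 23 bases, 22 were identical, and the single difference was G22C (the base of miR-103, the position counted from 1 at the 5′ end, then the base of miR-107). The seed GCAGCAU was shared by both, and they were the only 2 of 1679 mature mouse microRNA names in the RefSeq table that carried it. Array probes for RNAs that differ at 1 base may read each other's target, and this was not tested here, so how the signal splits between the pair is uncertain.

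The precursors show where the mature sequence comes from. The hairpins below are printed in lower case with the mature microRNA in capitals.
Mir103-1: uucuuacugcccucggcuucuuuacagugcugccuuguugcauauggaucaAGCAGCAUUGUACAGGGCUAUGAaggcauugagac
Mir103-2: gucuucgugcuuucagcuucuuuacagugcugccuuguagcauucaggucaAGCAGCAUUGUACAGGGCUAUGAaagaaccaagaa
Mir107: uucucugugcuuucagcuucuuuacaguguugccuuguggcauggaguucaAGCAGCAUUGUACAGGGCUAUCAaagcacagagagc
In GRCm38.p6, Mir103-1 lies at chr11:35782396-35782481 on the plus strand within Pank3, Mir103-2 at chr2:131288052-131288137 on the plus strand within Pank2, and Mir107 at chr19:34820687-34820773 on the minus strand within Pank1. Both miR-103 hairpins give the same mature sequence, so the array value of miR-103 cannot be divided between Pank3 and Pank2. The table had no separate row for the opposite arms of these hairpins.

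The question of the design was how tumours differed from the liver beside them. miR-103 and miR-107 had lower values in all 3 tumours than in all 3 adjacent pieces, a separation in this direction that 22.9% of all microRNAs and 31 of the 50 brightest (62%, those with a mean of 8 or more over the 6 arrays) showed. Neither passed the test over all microRNAs (0 of 2, where 0.288% were called lower). The mean differences were similar, -0.71 and -0.64 on the log2 scale, or 38.7% and 35.9% less signal on the linear scale. Adjacent pieces were nearly identical to each other, while the tumours were spread widely.

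miR-103 measured 7.21, 8.01 and 7.71 (log2 intensity) in tumours 1293, 1309 and 1316, against 8.39, 8.35 and 8.31 in the adjacent pieces of the same numbers. Tumour 1293 was the lowest and tumour 1309 the highest of the tumours, and the groups did not overlap, the highest tumour lying 0.30 below the lowest adjacent piece. The means were 7.64 ± 0.41 in tumours and 8.35 ± 0.04 in adjacent liver (SD, n = 3 each). The log2 fold change was -0.71 ± 0.20 (SE), with a 95% interval, not adjusted for the number of microRNAs, of -1.19 to -0.22. Limma, a linear model that shares the estimate of spread across microRNAs, gave an adjusted p of 0.12 after Benjamini-Hochberg adjustment over the 695. It takes 1 spread for both groups, although the SDs here were 0.41 and 0.04. The interval and the p rest on that assumption, and a fit with a separate spread for each group was not run. All 6 values lay above the array medians of 6.39 to 6.44, and so above the crowd of rows at the lower end of the scale.

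miR-107 measured 8.23, 8.996 and 8.60 in tumours 1293, 1309 and 1316, against 9.22, 9.25 and 9.28 in the adjacent pieces. The tumours kept the order seen for miR-103, and again the groups did not overlap, with a gap of 0.23. The means were 8.61 ± 0.38 in tumours and 9.25 ± 0.03 in adjacent liver (SD, n = 3 each). The log2 fold change was -0.64 ± 0.19 (SE; 95% interval -1.10 to -0.18; limma adjusted p = 0.13). The interval and p of limma again assume 1 spread for both groups. An exact permutation test of either microRNA alone gave p = 0.1, two-sided, which is the smallest value that 3 against 3 arrays allow.

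**Figure D1:**
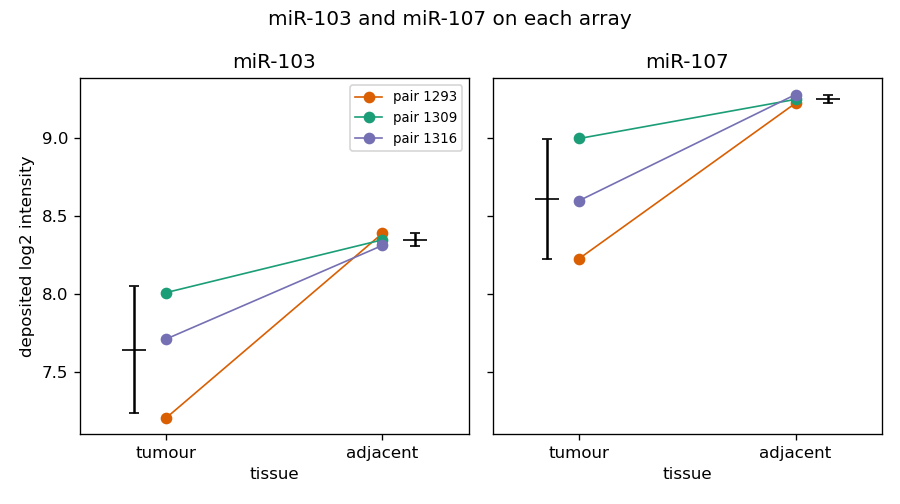
Deposited log2 intensity of miR-103 and miR-107 in the 3 tumours and the 3 adjacent pieces, with lines joining samples of 1 pair and black bars for the mean ± SD of each group. Every tumour lies below every adjacent piece, tumour 1293 is lowest in both panels, and the adjacent values nearly coincide.

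These results stand against a background in which many microRNAs were lower in tumours. Of the 695, limma called 20 at an adjusted p under 0.05 (2.88%), of which 2 were lower (0.288%), and neither miR-103 nor miR-107 was among them. In all, 14.1% were lower at an unadjusted p under 0.05, as were both miR-103 and miR-107. Among the 50 brightest, 28 (56%) were lower at an unadjusted p under 0.05 in limma. By size the pair stood further out: 18 of the 695 microRNAs had a lower log2 fold change than miR-103 and 24 a lower one than miR-107. Brightness moved with the differences. Among the 50 microRNAs with a mean of 8 or more over the 6 arrays, 82% had a lower mean in tumours and the median difference was -0.36, against 59.6% and -0.03 over all microRNAs. Of those 50, 9 had a lower log2 fold change than miR-103 and 11 a lower one than miR-107. The part of this trend with brightness in the values of the pair was not tested.

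**Figure D2:**
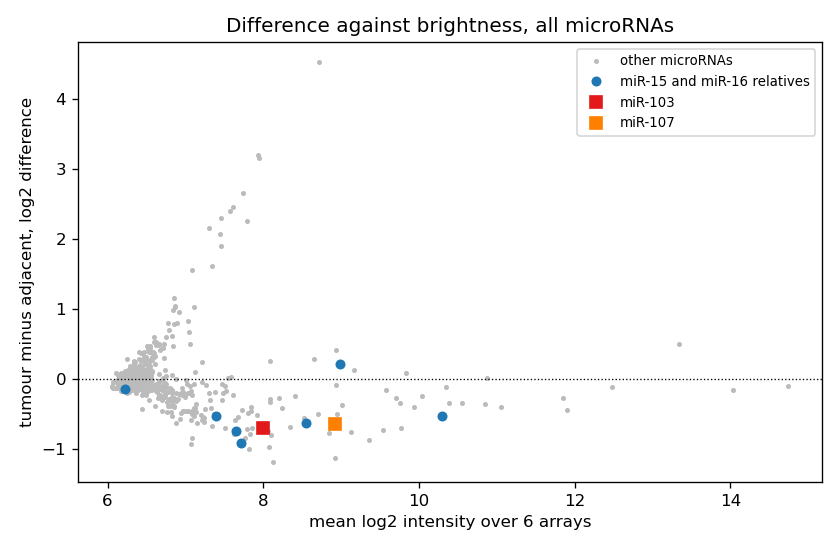
Tumour minus adjacent log2 difference against the mean log2 intensity over 6 arrays, 1 point for each of 695 microRNAs. miR-103 at -0.71 and miR-107 at -0.64 lie below most of the 50 microRNAs with a mean of 8 or more, of which 9 and 11 lie lower still. Most of the miR-15 and miR-16 relatives also lie below 0, and miR-15b lies above it.

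Ranks within an array do not depend on the log scale. Ordered by brightness, miR-103 held ranks 101, 61 and 67 of 695 in tumours 1293, 1309 and 1316, and ranks 46, 46 and 48 in adjacent pieces. miR-107 held ranks 49, 30 and 44 in the tumours and 26, 28 and 27 in adjacent pieces. Ranks did not overlap for either, with the tumours placed lower. Some of this came from the 18 microRNAs called higher in tumours, of which 14, 12 and 13 were brighter than miR-103 in tumours and 1 in each adjacent piece. Leaving those 18 out, miR-103 ranked 87, 49 and 54 in tumours against 45, 45 and 47 in adjacent pieces, still without overlap. miR-107 then ranked 39, 27 and 33 in tumours against 26, 28 and 27 in adjacent pieces, and the groups overlapped, since tumour 1309 reached the adjacent range.

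The size of the difference depended on the tumour. In pairs 1293, 1309 and 1316 the differences were -1.18, -0.34 and -0.60 for miR-103. For miR-107 they were -0.99, -0.25 and -0.68. Both were thus lower in 3 of 3 pairs, with pair 1293 at the low end and pair 1309 nearest to 0. The tumours varied more than the adjacent pieces, with a ratio of SDs of 10.5 for miR-103 and 13.9 for miR-107, against a median ratio of 2.93 over all microRNAs. Of the 695, 100 had a higher ratio than miR-103 and 62 a higher one than miR-107. Among the 50 brightest, the median SD was 0.27 in tumours and 0.055 in adjacent pieces, against 0.14 and 0.049 over all microRNAs.

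Tumour 1293 stood apart on many microRNAs, and it held the lowest of the 6 values for 43.0% of the 695. It was not lower throughout. Its array median was 6.44, against 6.39 to 6.40 on the other arrays, and some microRNAs were far higher on it than on any other. Array weights (limma's estimate of how closely each array follows its group) gave tumour 1293 a weight of 0.0715, against 1.08 to 2.13 for the other arrays. Without tumour 1293, both members passed the test although the differences were smaller: -0.49 for miR-103 (limma adjusted p = 0.014) and -0.45 for miR-107 (adjusted p = 0.038), among 12.2% of microRNAs called lower. Without tumour 1309, which was nearest to adjacent liver, they also passed, at -0.89 (limma adjusted p = 0.034) and -0.83 (adjusted p = 0.021), among 5.32% called lower. Leaving out tumour 1316, any 1 adjacent piece or any whole pair left both above an adjusted p of 0.05 in limma, including -0.47 (adjusted p = 0.079) and -0.46 (adjusted p = 0.13) without pair 1293. With array weights, both passed at -0.53 (limma adjusted p = 0.0064) and -0.50 (adjusted p = 0.013), among 12.5% called lower. With the weights and the pair number as a replicate block, miR-103 passed (-0.50; limma adjusted p = 0.049) and miR-107 did not (-0.49; adjusted p = 0.068), where 5.04% were called lower.

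**Figure D3:**
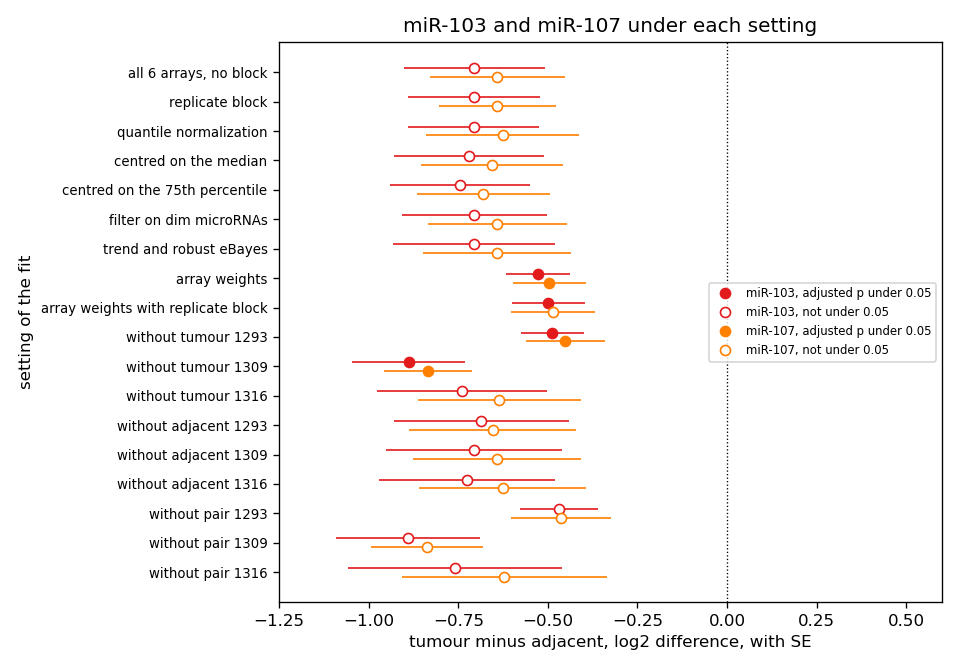
Log2 difference, tumour minus adjacent, with its SE for miR-103 and miR-107 under each setting of the fit. Filled points passed an adjusted p of 0.05 in limma. Every point lies below 0, between -0.89 and -0.45, and the filled ones come from array weights or from leaving out tumour 1293 or 1309.

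Since miR-103 comes from Pank2 and Pank3 and miR-107 from Pank1, the differences of the pair were set against each other within each array. The log2 value of miR-107 minus that of miR-103 was 1.02, 0.99 and 0.89 in tumours 1293, 1309 and 1316, against 0.83, 0.90 and 0.96 in adjacent pieces. The groups overlapped. These values hold a constant set by the probes, so only their change between groups can be read. It was 0.06 on the log2 scale, from 0.96 ± 0.07 in tumours and 0.90 ± 0.07 in adjacent liver (SD, n = 3 each; exact permutation p = 0.3, two-sided). By pair it was 0.19, 0.09 and -0.08 in 1293, 1309 and 1316 (SD 0.13, n = 3 pairs; exact sign-flip permutation p = 0.5, smallest possible 0.25), so the direction was not the same in every pair. An unequal change of the pair was not detectable with these arrays. Probes that read both RNAs would also make such a change look smaller, and this was not tested.

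The microRNAs most like each member over the 6 arrays were found by the root mean square difference of the values, each microRNA first centred on its own mean, among those with a mean of 8 or more. For miR-103 the nearest of 50 candidates was miR-107, at 0.06 on the log2 scale, which probes that read both RNAs would also give. miR-16, a relative with a shifted seed, followed at 0.08, and then miR-2141_v15.0 at 0.10. For miR-107 the nearest of 49 candidates were miR-23b (0.09), miR-16 (0.10) and the hepatocyte microRNA miR-194 (0.10). miR-103 was no candidate there, because its mean of 7.997 fell short of 8. At 0.06, its distance to miR-107 was below that of miR-23b. All of these shared the low value of tumour 1293 and the tumour order 1293, 1316, 1309, as the choice by likeness favours. That order was shown by 22 of the 50 microRNAs with a mean of 8 or more (44%) and by 26.2% of all. The rows next to miR-103 in brightness were miR-5097 above it, with a difference of -0.74 (limma adjusted p = 0.19), and miR-410 below it, a microRNA of the Dlk1-Dio3 region that rose by 3.15 in tumours (limma adjusted p = 0.0035). Next to miR-107 were miR-26a above it (-1.14, limma adjusted p = 0.12) and miR-193 below it (-0.60, adjusted p = 0.11).

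**Figure D4:**
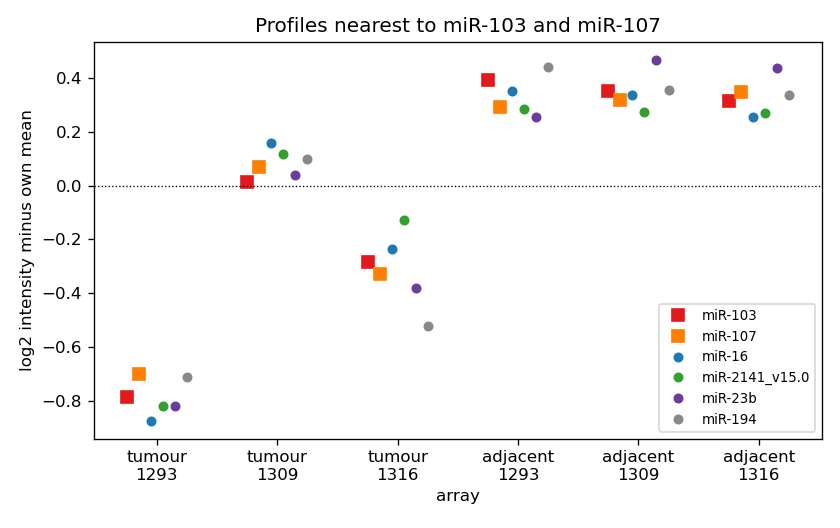
Log2 intensity minus each microRNA's own mean over the 6 arrays for miR-103, miR-107 and their nearest profiles, with points shifted sideways to part them. In every case tumour 1293 is lowest, tumour 1309 is highest among the tumours, and the adjacent pieces are higher than all tumours.

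miR-103 and miR-107 share the bases AGCAGC at the 5′ end with the miR-15 and miR-16 family and with miR-195, miR-497, miR-322 and miR-503, microRNAs known chiefly for slowing the cell cycle by lowering cyclins and their kinases. The sequences, again from RefSeq (GRCm38.p6) with the seed in capitals, show how the shared bases are shifted by 1 position.
miR-15a: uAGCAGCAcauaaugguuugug
miR-15b: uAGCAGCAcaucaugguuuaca
miR-16: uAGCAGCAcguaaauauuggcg
miR-195: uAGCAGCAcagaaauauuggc
miR-497: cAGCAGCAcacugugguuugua
miR-322: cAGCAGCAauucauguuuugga
miR-503: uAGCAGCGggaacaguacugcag
In miR-103 and miR-107 the bases AGCAGC start at position 1, and in these 7 they start at position 2. Their seeds are therefore AGCAGCA, or AGCAGCG in miR-503, in place of GCAGCAU.

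Of the 9 microRNAs of this AGCAGC group, 8 had a lower mean in tumours and 7 had groups that did not overlap with tumours lower. The 9 include miR-103 and miR-107. Of the other 7, 6 had a lower mean and 5 (71.4%) had groups that did not overlap with tumours lower. Such groups were found in 22.9% of all microRNAs and 62% of the 50 with a mean of 8 or more. None passed limma's adjusted test (0 of 9). At an unadjusted p under 0.05 in limma, 7 of the 9 and 5 of the other 7 were lower. The shares were 14.1% of all microRNAs and 56% of those 50. The median difference of the group was -0.63, and that of the other 7 alone was -0.54, against -0.03 over all 695 and -0.36 over those 50. Tumour 1293 was the lowest of the 6 arrays for 7 of the 9 and 5 of the other 7, against 43.0% of all microRNAs and 56% of those 50. By pair, the group's median was -1.03, -0.25 and -0.60 in 1293, 1309 and 1316.

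miR-16, whose 2 hairpins pair it with miR-15a and with miR-15b, had values of 7.68, 8.71 and 8.32 in tumours 1293, 1309 and 1316, against 8.91, 8.89 and 8.81 in adjacent pieces. Its groups did not overlap, and tumour 1309 came close to adjacent liver (log2 fold change -0.63 ± 0.25, SE; limma adjusted p = 0.24). miR-15a had 9.95, 10.28 and 9.83 in the tumours, against 10.46, 10.59 and 10.63 in adjacent pieces (-0.54 ± 0.13, SE; limma adjusted p = 0.096). Here tumour 1316, not 1293, was the lowest.

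miR-15b ran the other way, with 8.98, 8.97 and 9.30 in tumours 1293, 1309 and 1316, against 8.87, 8.85 and 8.92 in adjacent pieces. Every tumour lay above every adjacent piece, but the difference of 0.21 ± 0.10 (SE) did not pass (limma adjusted p = 0.33). It was the only 1 of the 9 with a higher mean in tumours.

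miR-195 and miR-497, which come from 1 cluster, had the largest mean differences of the group. miR-195 had 6.69, 7.57 and 7.52 in tumours 1293, 1309 and 1316, against 8.07, 8.18 and 8.28 in adjacent pieces (-0.92 ± 0.24, SE; limma adjusted p = 0.12). miR-497 had 6.88, 7.51 and 7.45 in the tumours, against 7.95, 8.01 and 8.13 in adjacent pieces (-0.75 ± 0.17, SE; limma adjusted p = 0.093). In both, tumours 1309 and 1316 were alike and tumour 1293 was far below them.

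miR-322 and miR-503, neighbours on the X chromosome, had smaller differences. miR-322 had 6.65, 7.42 and 7.33 in tumours 1293, 1309 and 1316, against 7.68, 7.64 and 7.67 in adjacent pieces (-0.53 ± 0.20, SE; limma adjusted p = 0.22). miR-503 lay between 5.97 and 6.27 in tumours and between 6.27 and 6.31 in adjacent pieces, at the lower end of the scale where little can be read (-0.14; limma adjusted p = 0.48).

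**Figure D5:**
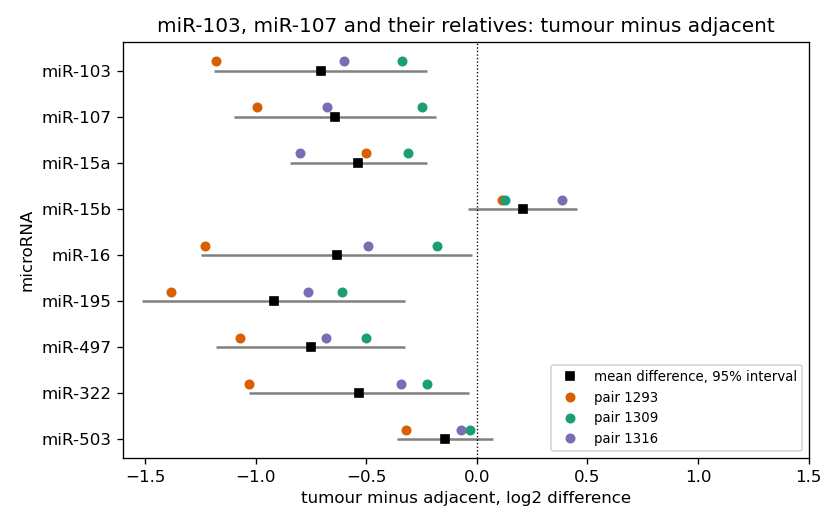
Tumour minus adjacent log2 differences of miR-103, miR-107 and the 7 relatives that share AGCAGC at the 5′ end, by pair (coloured points) and on average (black squares) with the 95% interval of limma, not adjusted for the number of microRNAs. All averages but that of miR-15b lie below 0, and pair 1293 gives the lowest point in 8 of the 9.

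Without tumour 1293, 6 of the 9 were called lower by limma: miR-103, miR-107, miR-15a, miR-195, miR-322 and miR-497, where 12.2% of all microRNAs were called lower. Without tumour 1309 the called ones were miR-103, miR-107 and miR-15a, where 5.32% were. Without pair 1293 they were miR-195 and miR-497, where 3.02% of all microRNAs were called lower. miR-15b was not called in any of these fits.

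Other microRNAs tied to insulin action and to glucose and lipid metabolism gave 0 calls among 19 measured, where 2.88% of all microRNAs were called. At an unadjusted p under 0.05 in limma, 8 were lower (42.1%) and 1 higher. Lower ones made up 14.1% of all microRNAs and 56% of the 50 brightest, and 41 of all 695 were higher. A lower mean in tumours was shown by 15 of the 19 (78.9%), against 59.6% of all and 82% of the 50 brightest. The median difference was -0.35, close to the -0.36 of the 50 brightest microRNAs. The largest were those of miR-26a, which raises insulin sensitivity in mouse liver (-1.14 ± 0.31, SE; limma adjusted p = 0.12), miR-378 (-0.68 ± 0.28; adjusted p = 0.25), miR-143, which impairs insulin signalling in obese mice (-0.58 ± 0.17; adjusted p = 0.13), and miR-27b, a regulator of lipid genes (-0.52 ± 0.16; adjusted p = 0.14). Without tumour 1293, the median was -0.18, and 7 were called lower and 3 higher, against 12.2% and 7.34% of all microRNAs. Without pair 1293 it was -0.19, with 4 called lower and 1 higher, against 3.02% and 5.04%. Without tumour 1309, 5 were called lower and 0 higher, against 5.32% and 3.02%.

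Like miR-103 and miR-107, some of these lie in introns of metabolic genes. miR-33, from the sterol regulator Srebf2, had 6.20, 6.87 and 6.92 in tumours 1293, 1309 and 1316, against 6.99, 7.11 and 7.06 in adjacent pieces (-0.39 ± 0.20, SE; limma adjusted p = 0.34). miR-378, from Ppargc1b, a coactivator of mitochondrial genes, had 6.34, 7.37 and 7.30 in the tumours, against 7.58, 7.79 and 7.69 in adjacent pieces. Its passenger arm miR-378* differed by -0.45 ± 0.13 (SE; limma adjusted p = 0.13). In all 3 the groups did not overlap, with tumours lower, as in 22.9% of all microRNAs. Tumour 1293 was lowest in all 3, as in 43.0% of all microRNAs. miR-378 and miR-378* are arms of the same hairpin, so they are not separate cases.

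miR-122, the main microRNA of hepatocytes, was used to check that the tissue was liver, and it ranked 1 on all 6 arrays. It had 14.42 to 14.82 in tumours and 14.75 to 14.82 in adjacent liver. Quantile normalization in the authors' processing may hold the top of the scale alike, so these values say little about a difference between groups. They also do not check which pieces were tumour. Averaged over markers of other cell types, leukocyte microRNAs had 6.79 to 7.29 in tumours and 7.22 to 7.41 in adjacent liver (4 of 6 with a lower mean). Stromal ones had 6.63 to 6.89 and 7.14 to 7.23 (4 of 5), and biliary ones 6.38 to 6.62 and 6.84 to 6.95 (5 of 5). Of the biliary ones, miR-200a and miR-200b passed (limma adjusted p = 0.042 for both), the only 2 of the 695 called lower. Endothelial ones had 8.28 to 8.64 and 8.67 to 8.73 (2 of 2), and erythroid ones 7.75 to 8.47 and 8.14 to 8.80 (2 of 2). The 3 hepatocyte markers averaged 11.51 to 11.97 in tumours and 12.14 to 12.15 in adjacent liver. All 3 had a lower mean in tumours, but the groups of miR-122 overlapped (-0.11). The ranges overlapped for the leukocyte and erythroid lists and lay apart, with tumours lower, for the others, narrowly so for the endothelial list. Taken singly, 2 of 6 leukocyte and 1 of 2 erythroid markers had groups that did not overlap with tumours lower. So had 3 of 5 stromal, 4 of 5 biliary, 1 of 2 endothelial and 2 of 3 hepatocyte ones. The shares were 22.9% of all microRNAs and 62% of the 50 brightest. A lower mean was shown by 59.6% and 82% of these. The part of these cell types in the values of miR-103 and miR-107 was not tested. In whole tissue, fewer cells of a type and less of a microRNA per cell cannot be told apart.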

How the data were processed

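Per the labels' protocols, total RNA from frozen tissue was extracted with a column kit, labelled with cyanine 3-pCp and run on Agilent microRNA arrays. The authors' deposited values are on a log2 scale after RMA (background correction, quantile normalization and summary over probes), per the submitters' processing notes, which list RMA and limma with no version. The log base is not given there and was taken as 2, as RMA returns. The 695 rows had 0 missing values. Detection calls were not analysed here.

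All rows were fitted with limma 3.58.1 in R 4.3.3 (lmFit, eBayes, two-sided, Benjamini-Hochberg, threshold 0.05), tumour against adjacent without a block, and the fit was tested on simulated data. Pairs of tumour and adjacent piece were taken from the labels. Residuals within pairs 1293, 1309 and 1316 correlated at -0.05, 0.07 and -0.003. Figures used matplotlib 3.10.9.

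Named microRNAs were the members, the AGCAGC group, members of a metabolism list (those hosted in metabolic genes, called ones and the 4 largest differences), the 3 nearest profiles and the neighbours in brightness of each member, and miR-122. The 2 microRNAs called lower were also named. Members, lists and alternatives were chosen with earlier results of these data known. Alternatives were the replicate block, quantile normalization, centring, a filter on dim rows, trend and robust eBayes, array weights, and leaving out arrays or pairs. All 9 microRNAs of the group were matched to RefSeq sequences.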

Additional observations from a re-analysis of the deposited data

How the results depend on the processing

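Both members stayed lower in tumours under all 17 alternatives, with limma log2 fold changes of -0.89 to -0.47 for miR-103 and -0.84 to -0.45 for miR-107. The adjusted p was under 0.05 in 4 of these for miR-103 (range 0.0064 to 0.60) and in 3 for miR-107 (0.013 to 0.60). The ends of the fold change ranges come from the 9 fits that leave out an array or a pair. With array weights limma called 138 microRNAs, with miR-103 at -0.53 and miR-107 at -0.50, 7 of the AGCAGC group and 11 of the metabolism list. With array weights and the replicate block it called 73, with miR-103 at -0.50, 3 of the AGCAGC group and 5 of the metabolism list. The replicate block alone called 12, against 20 without it, and left miR-103 and miR-107 at -0.71 and -0.64 (limma adjusted p = 0.18 for both). Leaving out arrays or pairs gave 9 to 136 calls over all microRNAs, 0 to 6 in the AGCAGC group and 0 to 10 in the metabolism list, whose median ranged from -0.43 to -0.18. The difference between the changes of miR-107 and miR-103 ranged from 0.004 to 0.14 over 11 alternatives. The exact permutation test of that difference cannot reach 0.05 with these arrays, so its p-values say nothing about stability. A fit with fewer arrays has less power, so a call lost there need not rest on 1 array. With 3 arrays a group the precision is low, and quantile normalization within RMA may have narrowed differences.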
